A study of Mus musculus with 4 samples.

Results

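The genes described here encode the cytosolic and mitochondrial protein-folding machinery other than Hsp70 and the chaperones of the endoplasmic reticulum: the HSP90 proteins, the J-domain (HSP40) proteins, the chaperonins, the small heat shock proteins, their cochaperones and the heat shock factors. They were chosen by symbol, and all 48 symbols matched a row among the 34745 gene rows of the deposited table. Transcripts were counted in T helper 17 (Th17) cultures, grown for 3 days under Th17 conditions from naive CD4+ T cells of the spleen of C57BL/6 mice. The wild type (WT) group had 2 libraries, named 13 and 15, and the group of genotype Setd2-CD4 cre had 2, named 22 and 24. Setd2 encodes the enzyme that trimethylates histone H3 at lysine 36. Cre driven by Cd4 sequences acts in developing T cells, so cells of other lineages in a culture need not carry the change. The Setd2 allele, the age of the mice, whether WT mice carried Cre, and whether libraries came from separate mice are not given in the sources consulted.

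Chaperones bind proteins that have not reached or have lost their fold. J-domain proteins deliver such clients to Hsp70 and trigger its ATP hydrolysis, BAG proteins and HSPBP1 release the nucleotide again, and HSP90 with its cochaperones completes the folding of kinases, steroid receptors and other signalling proteins. Chaperonins are barrels that enclose a client, HSP60 with its lid HSP10 in mitochondria and the TRiC complex in the cytosol, where actin and tubulin are its main clients. Heat shock factor 1 (HSF1) raises transcription of many of these genes through repeated GAA units, the heat shock element, when unfolded proteins accumulate. In T cells HSP90 keeps kinases of antigen receptor signalling, such as Lck, in an active form.

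Total counts were 11007343 to 12518415 per library. Setd2 itself stood at 184 and 176 CPM (library-scaled counts, here with TMM factors) in WT 13 and 15, compared with 144 and 153 CPM in Setd2-CD4 cre 22 and 24, a log2 fold change of -0.28 that missed the threshold (edgeR quasi-likelihood test, adjusted p = 0.0748). All 8 markers of CD4 T and Th17 cells were detected. Among them Cd3e, Cd3g and Trac were lower in Setd2-CD4 cre and Il17a and Rora higher. Of 15 B cell markers, 13 were higher in Setd2-CD4 cre and none lower, with a median log2 fold change of 2.52. Their summed level was 282 and 243 CPM in WT against 759 and 548 CPM in Setd2-CD4 cre (unscaled CPM), and no marker was at 0 in any library. Of the markers of other cells, 2 of 6 for CD8 T and NK cells, 1 of 5 for gamma-delta T cells, 3 of 5 for dendritic cells and 0 of 5 for macrophages and neutrophils were called higher, none was called lower, and those of red cells were too low to test. The part of RNA from other cells in the differences described here was not tested. In such bulk RNA, fewer cells of a type and less RNA per cell cannot be told apart.

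More of these genes were higher than lower in Setd2-CD4 cre cultures. The large rises were those of the inducible HSP90 gene Hsp90aa1 (2.66-fold), the J-domain genes Dnajb1 (2.91-fold) and Dnaja1 (2.21-fold), the mitochondrial cochaperonin gene Hspe1 (2.76-fold) and the heat shock factor gene Hsf2 (1.84-fold). Dnajb5, another J-domain gene, was 2.19-fold lower and the Hsp70 cofactor gene Bag2 2.17-fold lower.

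Of the 48 genes, 47 passed the filter on low counts. By edgeR's quasi-likelihood test (adjusted p under 0.05 over all 12927 genes tested), 17 of them were higher in Setd2-CD4 cre (36.2%, where 16.2% of all genes tested were called higher) and 6 were lower (12.8%, against 14.5%). Together 23 were called, where 30.7% of all genes were. The other 24 did not pass. A rise of at least 2-fold was called for 4 of the 47, and for 5.01% of all genes. The median log2 fold change was 0.26 over the 47 genes and -0.01 over all genes tested. The genotypes did not overlap for 27 genes that were higher in both Setd2-CD4 cre libraries (57.4%, against 34.6% of all genes) and 11 that were lower in both (23.4%, against 36.1%), so 38 did not overlap in either direction, against 70.7% of all genes. Between the 4 pairs of libraries taken across the genotypes, the median log2 ratio ran from 0.17 to 0.37.

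The count of smaller rises depended on scaling and on the libraries used. With upper-quartile factors 9 were higher and 7 lower, and with library totals 8 and 7. In the same fits the calls among all genes moved from 2094 higher and 1880 lower to 1565 and 2617 with upper-quartile factors and to 1409 and 2879 with library totals, and the median of all genes moved to -0.12 and -0.16. Relative to that median, the 47 genes lay 0.27 higher with TMM factors, upper-quartile factors and library totals alike. A change of scaling moves all genes by nearly the same amount, so this difference could hardly change between these settings. Leaving out WT 13 gave 8 higher and 2 lower, and leaving out WT 15 gave 6 and 1. Leaving out replicate 22 of Setd2-CD4 cre gave 19 and 7, and leaving out its replicate 24 gave 26 and 6. Hsp90aa1, Dnaja1, Dnajb1, Hspe1, Hsf2 and Dnajb5 passed in each of the 12 other settings tried.

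**Figure D1:**
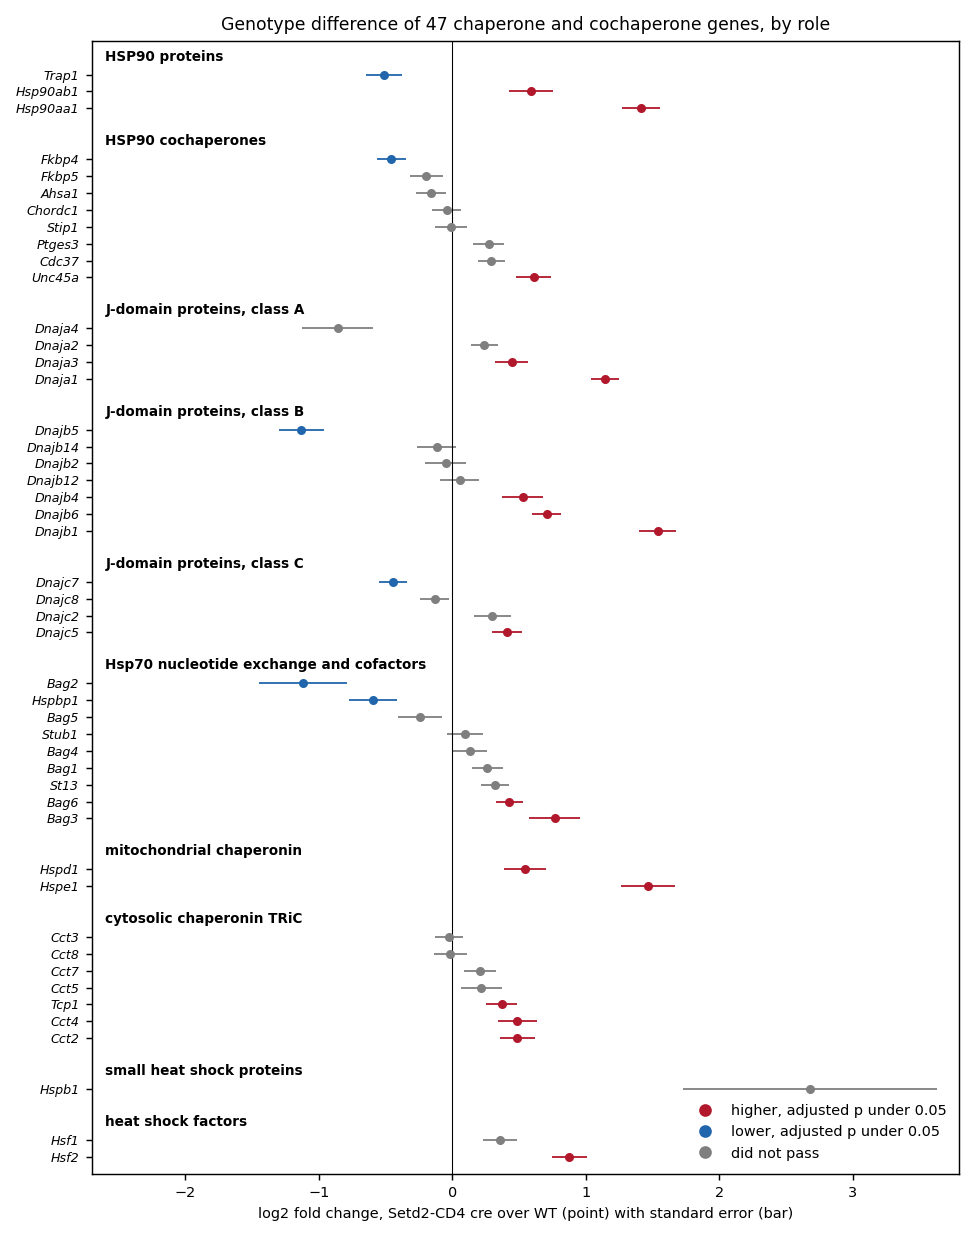
Log2 fold change of Setd2-CD4 cre over WT for the 47 tested genes, grouped by role (points, with bars for 1 standard error; colour marks the call). The 4 points beyond 1 in red are Dnaja1, Hsp90aa1, Hspe1 and Dnajb1, and the HSP90 cochaperones run from -0.46 to 0.61.

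The heat shock factors were both higher in each Setd2-CD4 cre library than in either WT library, as were 34.6% of all genes tested. Hsf2 encodes a factor that can form trimers with HSF1 and modulate its targets. It had 40.9 and 35.6 CPM in the WT pair, compared with 72.7 and 67.6 CPM in the Setd2-CD4 cre pair (log2 fold change 0.88 with SE 0.13, edgeR adjusted p = 0.00337). Hsf1, the gene of the main activator, measured 35.5 and 35.7 CPM in WT cultures, against 46.7 and 44.6 CPM with Setd2-CD4 cre (0.36 with SE 0.13, edgeR adjusted p = 0.065). The genotypes did not overlap for Hsf1, but the difference missed the threshold, and it passed without Setd2-CD4 cre 24 (adjusted p = 0.0235). Per length, the ratio of Hsf2 to Hsf1 was 0.890 and 0.769 in the WT pair and 1.20 and 1.17 in Setd2-CD4 cre by deposited FPKM (reads per kilobase of transcript, scaled to the library total). HSF1 is controlled largely after its synthesis, so these levels do not measure its activity.

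HSP90 has 2 cytosolic forms, the inducible alpha form of Hsp90aa1 and the constitutive beta form of Hsp90ab1, and a mitochondrial form, TRAP1. Hsp90aa1 (ENSMUSG00000021270, chromosome 12, 110690605 to 110702728) had 318 and 288 CPM in the WT pair, compared with 895 and 719 CPM in the Setd2-CD4 cre pair. The WT mean of 303 ± 20.8 CPM and the Setd2-CD4 cre mean of 807 ± 125 CPM (SD, n = 2 libraries per genotype) gave a log2 fold change of 1.41 with SE 0.14 (edgeR adjusted p = 0.00114). The lower Setd2-CD4 cre library was still far above the higher WT library. Hsp90ab1 (ENSMUSG00000023944, chromosome 17, 45567775 to 45573271) measured 1726 and 1905 CPM in WT cultures, against 3097 and 2367 CPM with Setd2-CD4 cre (0.59 with SE 0.17, edgeR adjusted p = 0.0319).

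The cytosolic forms were also compared with each other. The ratio of Hsp90aa1 to Hsp90ab1 per length, which does not depend on scaling between libraries, was 0.162 and 0.133 in the WT pair and 0.255 and 0.268 in Setd2-CD4 cre by deposited FPKM. Hsp90ab1 remained the more abundant form in all 4 libraries, with 313 to 499 FPKM, the highest level of the 48 genes. Its call was lost under edgeR with upper-quartile factors (adjusted p = 0.0614), with library totals (0.0673) and limma-trend on FPKM (0.0852), and without WT 13 (0.246) or WT 15 (0.16). Trap1, whose product works in the mitochondrial matrix, was 74.8 and 92.7 CPM in WT and 59.4 and 58.2 CPM in Setd2-CD4 cre, a fall of 1.42-fold (log2 fold change -0.51 with SE 0.14, edgeR adjusted p = 0.0258). Without WT 15 the call of Trap1 was lost (adjusted p = 0.28).

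**Figure D2:**
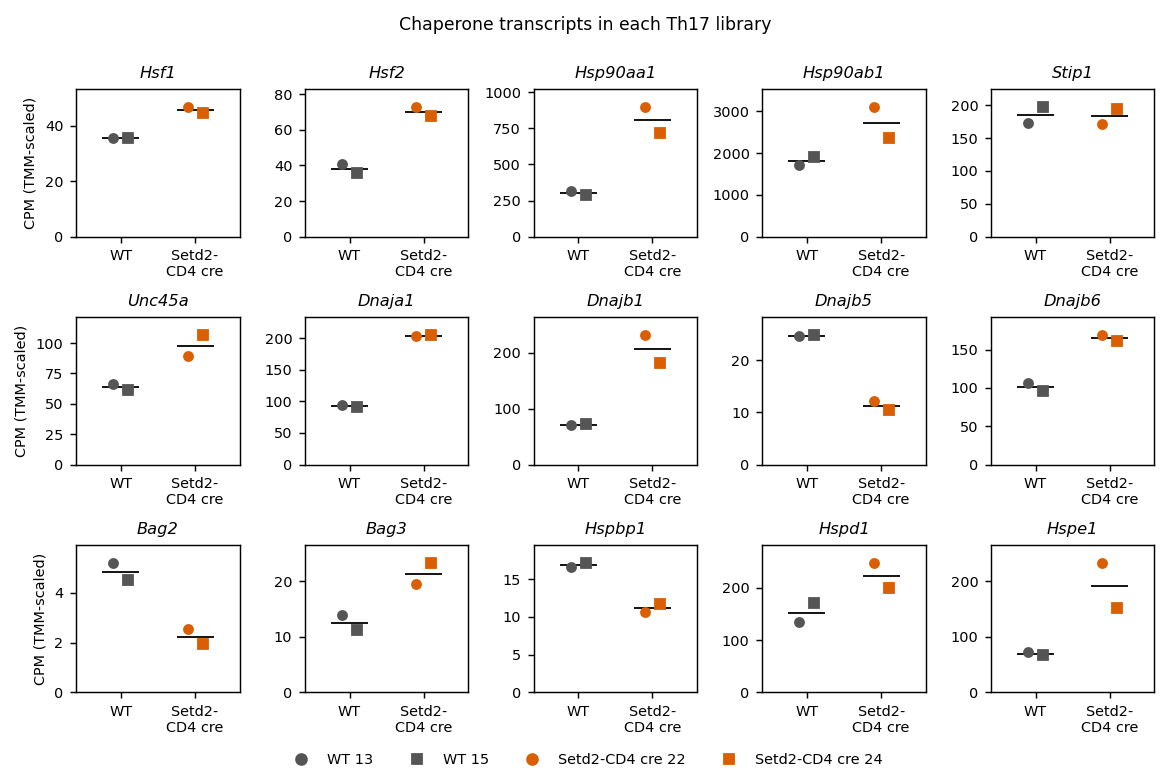
TMM-scaled CPM of 15 genes in each library (points; circles and squares are the 2 libraries of a genotype, lines are means; each axis starts at 0). The Setd2-CD4 cre points of Hsp90aa1, Dnaja1, Dnajb1, Hspe1 and Hsf2 lie above both WT points, those of Dnajb5, Bag2 and Hspbp1 below, and those of Stip1 overlap them.

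Cochaperones load clients onto HSP90 and time its ATP cycle. Of 8 such genes tested, 1 rose, 1 fell and 6 did not pass, so 2 of 8 were called where 30.7% of all genes were, and the median log2 fold change was -0.03. Stip1, which encodes the HOP adaptor that joins Hsp70 to HSP90, had 173 and 197 CPM in the WT pair, compared with 172 and 195 CPM in the Setd2-CD4 cre pair (-0.01 with SE 0.12, edgeR adjusted p = 0.953). The values of the genotypes overlapped. Unc45a, the gene of a myosin-directed cochaperone, measured 66.6 and 61.8 CPM in WT cultures, against 89.3 and 106 CPM with Setd2-CD4 cre (0.61 with SE 0.13, edgeR adjusted p = 0.0116). Fkbp4, which encodes the immunophilin FKBP52 of steroid receptor complexes, fell 1.37-fold (-0.46 with SE 0.11, edgeR adjusted p = 0.0188). The 6 that did not pass ran from -0.20 for Fkbp5, the gene of the related immunophilin FKBP51, to 0.29 for Cdc37, the gene of the kinase-specific cochaperone. Cdc37 had an edgeR adjusted p of 0.0621, and it passed when Setd2-CD4 cre 22 (0.0371) or 24 (0.00603) was left out. Without WT 13 and WT 15 the adjusted p-values were 0.0589 and 0.114 for Unc45a and 0.101 and 0.202 for Fkbp4, and limma-trend on FPKM gave Unc45a 0.0613.

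Of the 15 J-domain genes, 6 rose, 2 fell and 7 did not pass, with a median log2 fold change of 0.24. The shares were 40.0% higher and 13.3% lower, against 16.2% and 14.5% of all genes tested. Dnajb1 (ENSMUSG00000005483, chromosome 8, 83608175 to 83611902) encodes the main stress-inducible partner of Hsp70, which also holds HSF1 in check with it. It had 70.5 and 72.0 CPM in the WT pair, compared with 232 and 183 CPM in the Setd2-CD4 cre pair. The means were 71.2 ± 1.11 and 207 ± 34.7 CPM (SD, n = 2 libraries per genotype), which gave a log2 fold change of 1.54 with SE 0.14 (edgeR adjusted p = 0.000915). Dnaja1 (ENSMUSG00000028410, chromosome 4, 40722150 to 40737149) encodes a farnesylated partner of cytosolic Hsp70. It measured 93.8 and 90.5 CPM in WT cultures, against 203 and 205 CPM with Setd2-CD4 cre (1.15 with SE 0.10, edgeR adjusted p = 0.000939). The replicates of Dnaja1 were close together in both genotypes, with SDs of 2.36 and 1.09 CPM.

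The other J-domain genes that rose did so by less. Dnajb6, whose product suppresses aggregation of polyglutamine proteins, had 106 and 96.1 CPM in the WT pair, compared with 169 and 162 CPM in the Setd2-CD4 cre pair (0.71 with SE 0.11, edgeR adjusted p = 0.00374). Dnajb4 (0.53), Dnaja3 (0.45), the gene of a mitochondrial J-domain protein, and Dnajc5 (0.41), the gene of the vesicle protein CSP-alpha, had edgeR adjusted p-values of 0.0275 to 0.0342. Dnajb6 lost its call without WT 15 (adjusted p = 0.0572). Dnajb4, Dnaja3 and Dnajc5 lost theirs with upper-quartile factors, library totals, limma-trend on FPKM and without WT 13 (0.0944, 0.235 and 0.192) or WT 15 (0.325, 0.153 and 0.229). With limma-trend the log2 fold changes of Dnajb4, Dnaja3 and Dnajc5 were 0.26, 0.27 and 0.21, and DESeq2 gave Dnajb4 an adjusted p of 0.0545.

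Dnajb5 went the other way although its product is a close relative of DNAJB1. It measured 24.6 and 24.8 CPM in WT cultures, against 12.1 and 10.5 CPM with Setd2-CD4 cre (-1.13 with SE 0.17, edgeR adjusted p = 0.00331). Both Setd2-CD4 cre libraries lay well below both WT libraries, with close replicates. The ratio of Dnajb1 to Dnajb5 by deposited FPKM accordingly went from 13.8 and 14.1 in WT to 92.8 and 84.5 in Setd2-CD4 cre. The size of these ratios rests on the length used for each gene, but their change between libraries does not. Dnajc7, which encodes a J-domain protein that also binds HSP90, fell 1.36-fold (-0.44 with SE 0.10, edgeR adjusted p = 0.0152), a call lost without WT 13 (0.145) or WT 15 (0.13). Of the 7 that did not pass, Dnaja4 lay lowest at -0.86 (edgeR adjusted p = 0.0507), with 35.3 and 29.2 CPM in WT and 12.9 and 22.7 CPM in Setd2-CD4 cre, and Dnajc2 highest at 0.30. Dnaja4 passed in 8 of the 12 other settings. These were edgeR without Setd2-CD4 cre 22 (-0.50, adjusted p = 0.0201) or 24 (-1.32, 1.6e-06), with no filter (0.0402), upper-quartile factors (0.0333) or library totals (0.0351), and DESeq2 (0.0221), limma-voom (0.0343) and limma-trend on FPKM (0.0365).

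Among 9 genes of nucleotide exchange factors and other Hsp70 cofactors, 2 rose, 2 fell and 5 did not pass. Each direction was 22.2%, against 16.2% of all genes tested that were called higher and 14.5% called lower. Bag3, which encodes the cofactor of chaperone-assisted autophagy and is a known target of HSF1, had 13.9 and 11.2 CPM in the WT pair, compared with 19.5 and 23.3 CPM in the Setd2-CD4 cre pair (0.77 with SE 0.19, edgeR adjusted p = 0.0207). Bag2, whose product inhibits the ubiquitin ligase STUB1 (CHIP), had 68 and 59 counts in the WT pair but 26 and 21 in the other pair, or 5.19 and 4.49 against 2.53 and 1.93 CPM (-1.12 with SE 0.33, edgeR adjusted p = 0.0369). Hspbp1, the gene of another exchange factor, measured 16.6 and 17.1 CPM in WT cultures, against 10.6 and 11.7 CPM with Setd2-CD4 cre (-0.59 with SE 0.18, edgeR adjusted p = 0.0384). The genotypes did not overlap for any of Bag2, Bag3 and Hspbp1, as for 70.7% of all genes tested. Bag6, which guards tail-anchored and mislocalized proteins, rose 1.35-fold (0.43, edgeR adjusted p = 0.019).

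The calls of these cofactors were not kept in every setting. Without WT 15, Bag3 (adjusted p = 0.183), Bag2 (0.136), Hspbp1 (0.235) and Bag6 (0.203) did not pass, nor did Bag2 (0.213), Hspbp1 (0.187) and Bag6 (0.142) without WT 13. Bag6 did not pass with library totals (0.0743) or by limma-trend on FPKM (0.091) either. Bag2 also missed the threshold without Setd2-CD4 cre 24 (0.0597), and DESeq2 gave Bag2 and Hspbp1 adjusted p-values of 0.0951 and 0.0961. Of the 5 cofactor genes that did not pass, Bag5 lay lowest (-0.24) and St13, the gene of the Hsp70-interacting protein HIP, highest (0.32, edgeR adjusted p = 0.0501). Stub1 had 53.1 and 47.2 CPM in the WT pair, compared with 57.0 and 49.97 CPM in the Setd2-CD4 cre pair.

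The mitochondrial chaperonin genes both rose. Hspd1 (ENSMUSG00000025980, chromosome 1, 55077835 to 55088243, minus strand) encodes the HSP60 barrel, and Hspe1 (ENSMUSG00000073676, chromosome 1, 55088132 to 55091307, plus strand) its HSP10 lid. The genes point away from each other and their annotated ends share 112 bases. Hspe1 measured 72.5 and 66.8 CPM in WT cultures, against 233 and 152 CPM with Setd2-CD4 cre (1.47 with SE 0.20, edgeR adjusted p = 0.00427). Hspd1 had 133 and 171 CPM in the WT pair, compared with 246 and 199 CPM in the Setd2-CD4 cre pair (0.55 with SE 0.16, edgeR adjusted p = 0.0357). In both genes the lower Setd2-CD4 cre library exceeded the higher WT library, as in 34.6% of all genes tested.

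By deposited FPKM, the ratio of Hspe1 to Hspd1 went from 0.868 and 0.623 in WT to 1.51 and 1.22 in Setd2-CD4 cre. Which of these genes stands higher depends on the length used for each, and only the change between genotypes is read here. Hspd1 lost its call with upper-quartile factors (adjusted p = 0.0754), library totals (0.0886) and limma-trend on FPKM (0.109), without WT 13 (0.242) and without Setd2-CD4 cre 22 (0.144). A pseudogene, Hspd1-ps3, held 530 and 635 counts in the WT pair and 616 and 525 in the other, so reads of Hspd1 may have been split with it. The 9 other listed genes named as copies of these genes had at most 2 counts in a library.

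TRiC has 8 kinds of subunit, of which the 7 described here are encoded by Tcp1, Cct2, Cct3, Cct4, Cct5, Cct7 and Cct8. Of these 7 genes, 3 rose (42.9%, against 16.2% of all genes tested), none fell and 4 did not pass. Cct2 rose from 356 and 357 to 554 and 447 CPM (0.49 with SE 0.13, edgeR adjusted p = 0.0262) and Cct4 from 234 and 255 to 389 and 296 CPM (0.49, SE 0.14, adjusted p = 0.0375). Tcp1 rose from 414 and 413 to 571 and 496 CPM (0.37 with SE 0.12, edgeR adjusted p = 0.0465), and it overlaps Mrpl18 on the opposite strand. Each of these was higher in Setd2-CD4 cre 22 than in 24. The 4 that did not pass ran from -0.02 for Cct3 to 0.22 for Cct5, whose 387 CPM in Setd2-CD4 cre 22 stood above, and 282 CPM in Setd2-CD4 cre 24 below, both WT values of 287 and 288.

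The calls of Cct2, Cct4 and Tcp1 were lost with upper-quartile factors (adjusted p = 0.058, 0.0827 and 0.122), with library totals (0.0735, 0.101 and 0.174) and with limma-trend on FPKM (0.0994, 0.13 and 0.158). They were also lost without WT 13 (0.162, 0.213 and 0.267) and without WT 15 (0.17, 0.128 and 0.293). The subunits are present in equal number in the complex. Deposited FPKM ran from 10.8 to 12.8 for Cct3 to 190.0 to 263 for Cct2, a contrast that depends on the length used for each gene. Without length, Cct3 stood at 107 to 114 CPM and Cct2 at 356 to 554 CPM. The remaining subunit gene, Cct6a, stood at 27.2 to 35.0 FPKM and did not pass (log2 fold change 0.10, edgeR adjusted p = 0.613).

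The small heat shock proteins, which hold unfolded clients without ATP, were hardly detected. Hspb1 had 9 and 0 counts in the WT pair and 15 and 33 in the other (edgeR adjusted p = 0.0725), and its fitted log2 fold change of 2.68 moved from 0.85 to 7.69 over the settings tried. Hspb1 passed by limma-trend on FPKM (adjusted p = 0.0415), and under edgeR when WT 13 (0.0147) or Setd2-CD4 cre 22 (0.0421) was left out. Hspb8 had 0 counts in all 4 libraries, which allows up to 3 counts in each, or 0.240 to 0.273 CPM, and was not tested.

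**Figure D3:**
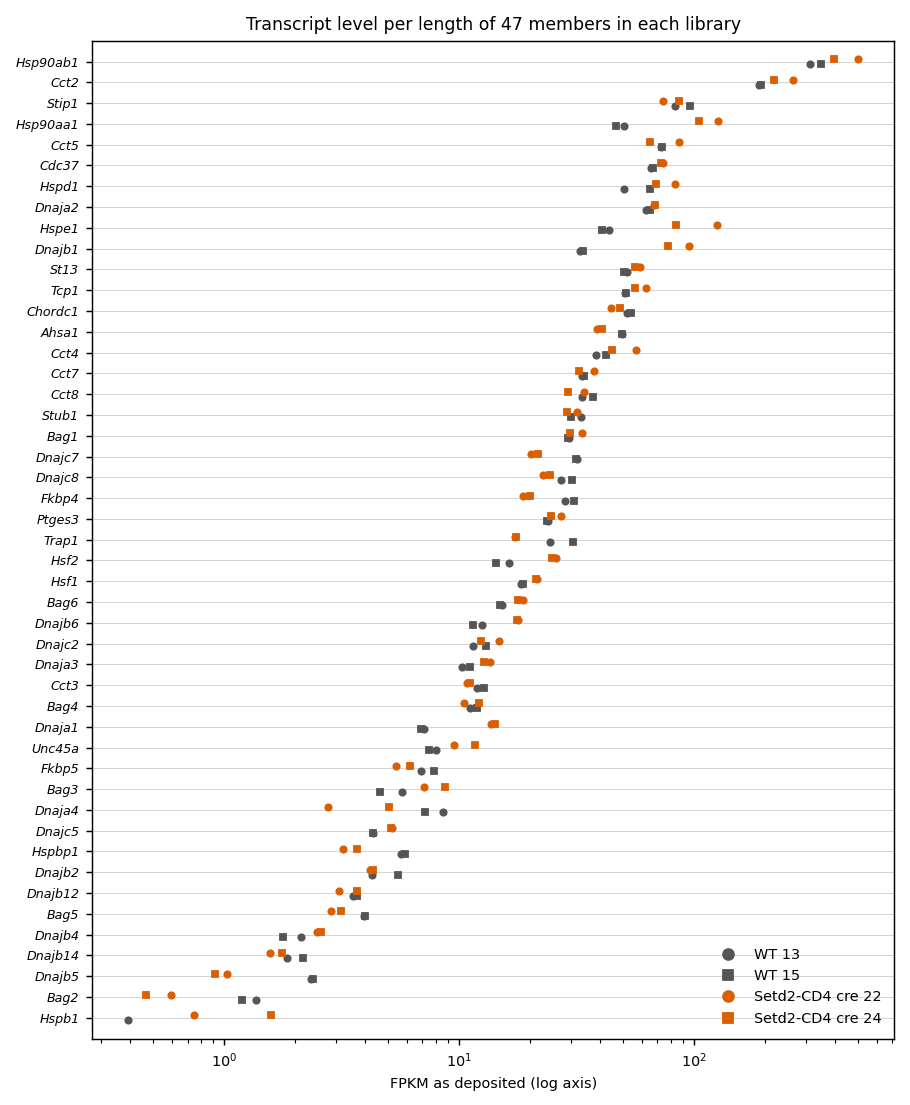
Deposited FPKM of the 47 detected genes in each library (log axis; points are libraries, genes ordered by their median; the 0 of Hspb1 in WT 15 is not drawn). Levels ran from under 2 for Hspb1 and Bag2 to 313 to 499 for Hsp90ab1. The order of genes also depends on the length used for each.

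The sequences before the gene starts were searched for the heat shock element, which HSF1 and HSF2 recognise. The list was chosen as heat shock and folding genes, so a share of elements above that of all genes was likely whatever the cultures showed. The search used RefSeq promoter windows (GRCm38.p6, 250 bases before to 50 after each start), and 40 of the 48 genes had at least 1 window. Hsp90aa1, Hsp90ab1, Hsf1, Cct4, Dnajc2, Dnajc5, Bag4 and St13 had none. A full element of 3 adjoining units (GAANNTTCNNGAA or TTCNNGAANNTTC, which are each other's reverse complement) was present for 4 of the 40 genes, against 179 of 27025 genes with a window (0.662%). These were Hspe1, Hspd1, Dnajb6 and Chordc1, of which the first 3 rose and the last did not pass. A pair of units (TTCNNGAA or GAANNTTC, both palindromic in their fixed letters and contained in every full element) was present for 15 of 40 (37.5%), against 17.0% of all genes. Among the genes with a window a pair was present for 7 of 13 that rose, 1 of 6 that fell, 6 of 20 that did not pass and Hspb8, which was not tested. Over all tested genes with a window a pair was present for 14.1%, for 15.2% of those called higher and for 14.0% of those called lower.

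These sites are shown because they carry the full elements, or the pair in the strongly risen Dnaja1 and in Fkbp4, which fell. Each is 30 bases, 5′ to 3′ on the strand of the gene, with the matched letters in capitals. Hspe1 and Hspd1 share a run of 4 adjoining units at chr1:55088053-55088082, which begins 89 bases before the Hspe1 start and, read on the other strand, 144 bases before an Hspd1 start, inside an annotated UTR exon of a longer Hspd1 transcript. The Dnajb6 site (chr5:29735843-29735872, plus strand) begins 46 bases before a start of the gene and lies in the UTR of a longer transcript. The Chordc1 site (chr9:18292259-18292288, plus strand) holds 5 adjoining units across the gene start and lies in an annotated UTR. The Dnaja1 site (chr4:40722333-40722362, plus strand) begins 124 bases before a start, within an exon of a longer transcript and of the opposite-strand gene Gm6297. The Fkbp4 site (chr6:128438789-128438818, minus strand) begins 151 bases before its start, in an exon of Gm10069.
Hspe1: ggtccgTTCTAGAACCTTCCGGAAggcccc
Hspd1: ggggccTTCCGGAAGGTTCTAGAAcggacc
Dnajb6: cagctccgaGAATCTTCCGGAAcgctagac
Chordc1: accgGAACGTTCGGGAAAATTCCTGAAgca
Dnaja1: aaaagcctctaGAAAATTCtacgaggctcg
Fkbp4: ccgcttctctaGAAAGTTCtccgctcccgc

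The Hspe1 and Hspd1 lines are the same DNA read on its 2 strands, so the 4 genes with a full element hold 3 separate sites. The longest run of units, that of Chordc1, belonged to a gene at 109 and 112 CPM in WT and 105 and 111 CPM in Setd2-CD4 cre (log2 fold change -0.04, edgeR adjusted p = 0.785). Dnajb1, the largest rise among the called genes, had 2 windows and neither form of the element in them. A match shows letters in a window, not binding, which was not measured here. Units with a mismatch and bases outside the windows were not searched, so the lack of a match does not show that an element is absent.

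Other genes of the pathway were counted beside these. Of 12 tested genes of the Hsp70 and Hsp110 families, which receive clients from the J-domain proteins, 7 rose and none fell. The share higher was 58.3%, against 16.2% of all genes tested, and the median log2 fold change was 0.69. Hsph1, an Hsp110 exchange factor gene (2.17), Hspa1l (4.63), Hspa1a (4.56) and Hspa4l (1.01) had edgeR adjusted p-values of 0.000322 to 0.00123, and reads of Hspa1a may be shared with its near-identical copy Hspa1b. Of 11 tested genes recognised as further HSF1 targets, a list that shares members with the Hsp70 family, 8 rose and 1 fell. The shares were 72.7% and 9.09%, against 16.2% and 14.5% of all genes tested, and the median was 0.80. Besides Hsph1, Hspa1a, Hspa1b, Hspa8 and Hspa4l, the polyubiquitin gene Ubb (0.94, edgeR adjusted p = 0.00292) and Cacybp (0.45, 0.0295) were among those that rose. Ier5, the gene of a protein that promotes dephosphorylation of HSF1, fell (-0.76, edgeR adjusted p = 0.0103).

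The more distant parts of the machinery were counted in the same way, beside all genes tested, of which 16.2% were called higher and 14.5% lower. Of 28 other J-domain genes tested, 2 rose and 2 fell, with a median of 0.00. Dnajc25 rose (1.38) and Dnajc10, the gene of a reductase of the endoplasmic reticulum (-0.75), and Dnajc30 (-1.48) fell, with edgeR adjusted p-values of 0.00319 to 0.00858. Of 21 other HSP90 cochaperone genes, 5 rose and 3 fell (23.8% and 14.3%), with a median of 0.04. Sugt1, which encodes the adaptor of HSP90 for leucine-rich repeat receptors, rose (0.87, edgeR adjusted p = 0.00463), as did Rpap3 (0.55, 0.019), while Pih1d1 (-0.57, 0.0292) fell. Of 11 genes of prefoldin and other chaperonin partners, Vbp1, a prefoldin subunit gene, rose (0.45, edgeR adjusted p = 0.0279) and Pdcl fell (-0.78, 0.00518). Of 12 genes of mitochondrial folding and proteolysis, 3 rose and none fell, with a median of 0.24. Clpx (0.61, edgeR adjusted p = 0.0113) and Afg3l2 (0.41, 0.0199) led these rises. None of 3 tested genes of other heat shock factors and their binding proteins passed. The smallest p-values were those of Hsbp1, the gene of a heat shock factor binding protein (-0.33, edgeR adjusted p = 0.117), and Hsf2bp (0.81, 0.162).

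Genes that respond to temperature and handling were examined beside these differences. Cirbp, a gene that cold induces and heat represses, measured 46.1 and 41.2 CPM in WT cultures, against 11.7 and 18.3 CPM with Setd2-CD4 cre (-1.54 with SE 0.22, edgeR adjusted p = 0.0031). Rbm3, which cold also induces, had 222 and 234 CPM in the WT pair, compared with 199.8 and 175 CPM in the Setd2-CD4 cre pair (-0.28, edgeR adjusted p = 0.0916). Both genes were lower in each Setd2-CD4 cre library than in either WT library, as were 36.1% of all genes tested. Of 15 immediate early genes, 3 rose and 5 fell (20.0% and 33.3%, against 16.2% and 14.5% of all genes tested), with a median of -0.18. Klf6 (1.04) and Jun (0.97) rose and Jund (-1.18) and Ier2 (-1.14) fell, with edgeR adjusted p-values of 0.00112 to 0.0019. The temperature and handling of the cultures are not given, and their part in the rises was not tested.

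The Setd2-CD4 cre libraries differed from each other in these genes. Of the 17 that rose, 13 were higher in replicate 22 than in replicate 24 (76.5%, against 63.0% of all genes called higher). Dnaja1, Bag3, Unc45a and Dnajb4 were the exceptions, and Dnaja1 and Dnajb4 differed by under 2 CPM between those libraries. Among the 6 that fell, 3 were higher in replicate 22 (50.0%, against 34.9% of all genes called lower). The summed markers of B cells, of CD8 T and NK cells and of dendritic cells were also higher in replicate 22 (unscaled CPM). Those of CD4 T and Th17 cells and of gamma-delta T cells were lower there, and those of macrophages and neutrophils were nearly level.

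**Figure D4:**
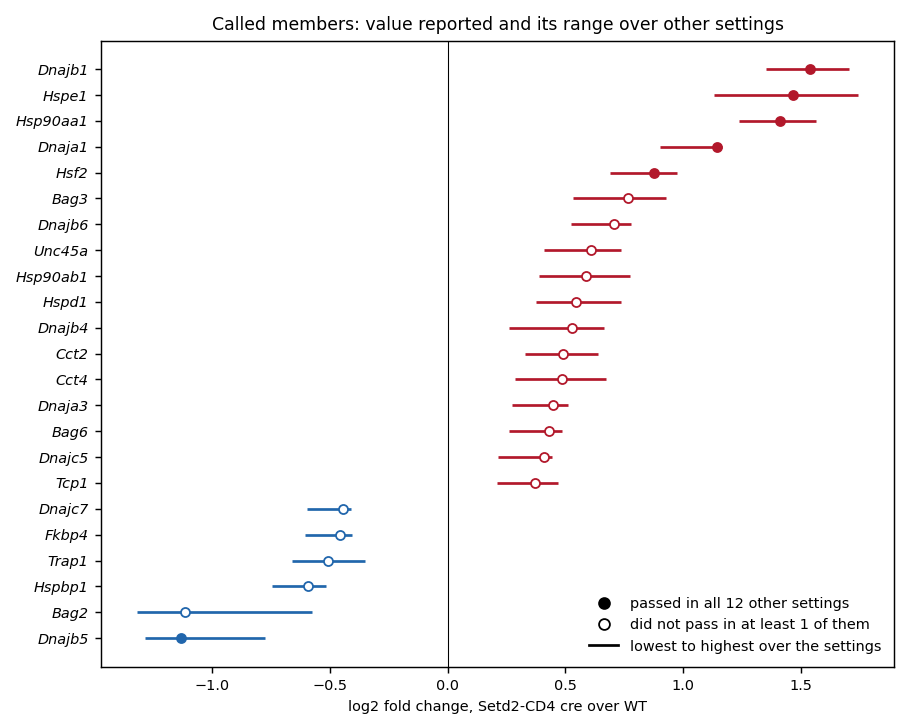
Log2 fold change of the 23 called genes (points; filled where the gene passed in each of the 12 other settings) with the lowest and highest value over those settings (lines). No line crosses 0, and the 6 filled points are Dnajb1, Hspe1, Hsp90aa1, Dnaja1, Hsf2 and Dnajb5.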

How the data were processed

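Libraries were sequenced on an Illumina HiSeq instrument from TRIzol RNA, per the labels' protocols. The authors deposited whole-number counts per gene and FPKM, per the file headers. Bowtie2, RSEM, GRCm38.p6 and mm10 are named in the submitters' processing notes, with no role or version. Any rounding of estimated counts, the use of strand and the annotation are not stated there. Of the 48 genes, 15 overlap a listed gene on the opposite strand, so their reads are less certain. Each FPKM value could be derived from its count, the library total and 1 length per gene (largest difference 0.0513% over 10589 genes). For Dnajb5, Hsp90ab1, Bag5 and Hspb1 that length exceeds the span of the gene in the deposited coordinates. FPKM levels of different genes, and the size of their ratios, are therefore uncertain. The change of a ratio between libraries does not depend on the length.

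The unaltered counts entered edgeR 4.0.16 under R 4.3.3 (TMM factors, filterByExpr by genotype, robust quasi-likelihood fit, Benjamini-Hochberg adjustment over 12927 genes, threshold 0.05). Values are TMM-scaled CPM. Folds set Setd2-CD4 cre over WT. An adjusted p with no other tool named is edgeR's. Replicates are named by the number in the sample title, and p-values reflect the spread between these libraries alone, which may be technical. Replicates differed by more than counting noise (chi-square per degree of freedom 8.27 in WT and 17.4 in Setd2-CD4 cre). A count of 0 allows up to 3 counts, for counting error only.

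Alternatives were other scalings and filters, DESeq2 1.42.0, limma 3.58.1 (voom, and trend on log2(FPKM + 1)), and leaving out each library, where the lone library of a genotype is assumed to vary like the other genotype. On simulated counts with 200 changed genes (12596 genes run), edgeR recovered 16 of 67 genes at 1.5-fold, 50 of 67 at 2-fold and 61 of 66 at 4-fold, with 6 false among 133 calls. In the real data 3974 genes were called. The adjustment is stricter where fewer genes change, so the shares recovered need not hold for these data.

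The genes and lists were chosen with earlier results of these data known. Values are given for every gene past the threshold, for Hsf1, Hsf2, Hsp90aa1, Hsp90ab1, Dnajb1, Hspd1, Hspe1, Bag3 and Stip1 always, and in every library for those that differed at least 1.5-fold. From each list of other pathway or handling genes, 2 to 4 of those with the smallest p-values are named. A few genes of these lists are counted but not reported here by name. Other genes named were chosen after their values were seen. Coordinates are those of the deposited table, and promoter windows are RefSeq's. The sample titled 15 carries a cell type label that starts with 14, and its title was used.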

Additional observations from a re-analysis of the deposited data

How the results depend on the processing

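No paired analysis was possible because the genotypes share no replicate number. The number of these genes called higher was 9 with upper-quartile factors, 8 with library totals and 8 by limma-trend on log2(FPKM + 1), and their median log2 fold change was 0.15, 0.11 and 0.10 in the same order. When each library was left out in turn, the number higher ranged from 6 to 26, the number lower from 1 to 7 and the median from 0.19 to 0.37. Among all genes, 2879 were lower with library totals and 1267 higher by limma-trend, and leave-one-out counts ranged from 718 to 3068 higher and from 564 to 2903 lower. Relative to the median of all genes, the members' median lay 0.20 to 0.39 higher in all 13 settings, the reported one included. Settings that differ only in scaling could hardly change this difference, since they move all genes nearly alike.

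No called gene changed sign. Signs turned only for 9 genes that had not passed and that, apart from Cct5 (0.22), lay near 0. With upper-quartile factors, library totals and limma-trend Dnajb12 was -0.0553, -0.0937 and -0.0764 and Stub1 -0.0182, -0.0596 and -0.0573, and Bag4 was -0.0185 with library totals and -0.0199 by limma-trend. With each library left out in turn, 7 of them ranged through 0: Stip1 from -0.1072 to 0.0842, Chordc1 from -0.0792 to 0.0037, Dnajb2 from -0.2215 to 0.1354, Dnajb12 from -0.0523 to 0.166, Cct3 from -0.0712 to 0.0189, Cct5 from -0.0227 to 0.4304 and Cct8 from -0.15 to 0.1188. Cct5 passed without Setd2-CD4 cre 24. In the fits without WT 13 and WT 15, 14 and 16 of the 23 calls were lost, 13 of them in both. Depth limits Hspb1 and Hspb8, with at most 33 counts in a library. Of differences of 1.5-fold the simulated test recovered 16 of 67, but far fewer genes changed in the simulation than were called here, which makes its adjustment stricter.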

Other observations

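Some of these genes adjoin or overlap another tested gene, and 4 such pairs are given here. Hsf1 lies head to head with Bop1, the gene of a ribosome biogenesis factor, with 176 bases between the starts. Bop1 had 33.5 and 36.0 CPM in the WT pair, compared with 24.6 and 25.9 CPM in the other pair (log2 fold change -0.46, edgeR adjusted p = 0.0382), while Hsf1 did not pass at 0.36. Dnaja1 overlaps the opposite-strand gene Gm6297, which fell from 3.28 and 3.58 to 1.46 and 1.28 CPM (-1.32, edgeR adjusted p = 0.0327). Dnajc7 overlaps Cnp on the opposite strand, and both fell (-0.44 and -0.64, edgeR adjusted p = 0.0152 and 0.00913). Cct8 did not pass (-0.01, edgeR adjusted p = 0.941), while Usp16, which it overlaps on the opposite strand, rose (0.55, 0.0125). These neighbours were chosen after their values were seen, and without strand their reads cannot be told apart where they overlap.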
